A study of Mus musculus with 8 samples.

Results

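Described here are 10 genes in the pulp of the first molar at postnatal day 7 (P7). They are the ligands *Wnt10a*, *Wnt6* and *Wnt5a*, and the pathway's readouts *Axin2*, *Lef1* and *Nkd1*. With them are the secreted antagonists *Sfrp1*, *Sfrp2* and *Frzb*, and *Dkk3* of the Dkk family. The 10 genes were taken from the table by their Ensembl identifiers, and all 10 were among its 12148 genes. The RNA came from C57BL/6J mice of both sexes, with the left and right first molars combined. The 4 control libraries, labelled 49 to 52, are from Osterix-Cre mice, which carry Cre recombinase fused to GFP under the Osterix promoter. The 4 mutant libraries, labelled 53 to 56, are from Osterix-Cre:Tgfbr2f/f mice (*Tgfbr2cko*), which carry the same Cre and both copies of *Tgfbr2*, the type II TGFβ receptor gene, flanked by loxP sites. Both genotypes therefore carry Cre. A reporter line in the study placed its activity in odontoblasts and scattered pulp cells and not in nerve fibres, so the pulp of a mutant is a mixture of cells with and without the deletion. The pulp had been freed of mineralized tissue and enamel organ before RNA was extracted. Nothing in the labels says how many mice stand behind a library, so the p-values measure the spread between these libraries.

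Wnt proteins are secreted lipid-modified signals that bind Frizzled receptors. In the canonical branch, binding together with an Lrp5 or Lrp6 co-receptor stabilizes β-catenin, which enters the nucleus and acts with the TCF and LEF family of DNA-binding proteins. Among the genes switched on are *Axin2* and *Nkd1*, whose products damp the same signal, so that their level is widely used as a readout of it. Secreted antagonists either catch the ligand, as the Sfrp proteins and Frzb do, or occupy the co-receptor, as several Dkk proteins do. In teeth, *Wnt10a* is expressed in the dental epithelium and later in odontoblasts, and its loss disturbs crown and root formation.

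Values are log2 CPM as deposited, that is, read counts scaled to the total over the table's genes. Library totals over these genes ran from 8682872 to 13539670 reads, so that 1 read is between 0.0739 and 0.115 CPM, and this depth bounds counting error only. A gene was called altered when its unadjusted p from limma-trend was under 0.05 and it changed 1.5-fold or more. Adjusted p-values are over all 12148 genes. The libraries carried the marker genes of their tissue: 7 of 7 pulp mesenchyme markers and 7 of 7 odontoblast markers were in the table, against 1 of 4 for Schwann cells. Markers of some other cells were called too, beside 2.12% of all genes called higher, 3.65% called lower and 5.27% without overlap. The 4 leukocyte markers summed to 762 to 897 CPM in the controls and 284 to 674 CPM in the mutants, without overlap, and 3 were called lower. The 2 markers of alveolar bone in the table summed to 65.2 to 94.8 CPM in the controls and 89.8 to 250 CPM in the mutants. The library labelled 56 had the highest bone sum, and 1 of the 2 was called higher. Among 5 endothelial and 3 pericyte markers 1 each was called lower, and their summed levels overlapped between the genotypes. Of the 7 pulp mesenchyme, 4 erythroid, 2 chondrocyte and 1 Schwann cell markers in the table, 0 were called. The part of these markers in the results was not tested. All 13 markers of dental epithelium and enamel organ were present too, and their summed level ran from 3845 to 22921 CPM in the controls and from 4153 to 196493 CPM in the mutants. The highest value belonged to the library labelled 56, in which *Amelx* and *Ambn* took 18.5% of the reads, and the next highest to the libraries labelled 55 and 49. *Tgfbr2* itself had log2 values of 7.16, 7.62, 7.64 and 7.52 in the controls, against 7.02, 7.00, 7.16 and 7.61 in the mutants, so the libraries labelled 55 and 56 lay within the control range, the former at its lower end. The difference was -0.29 on the log2 scale (limma-trend, adjusted p = 0.79, exact permutation p = 0.143). It was -0.42 without the library labelled 56 and -0.39 without that labelled 49, and in both fits the unadjusted p passed 0.05. The counts cover all exons of the gene and the flanked part is not given in the sources used here, so this level does not settle the genotype of a library.

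The set of RefSeq start sites used here (GRCm38.p6) held 6 of the 10 genes, and *Wnt10a*, *Wnt5a*, *Dkk3* and *Sfrp1* were absent from this set. The 250 bases before the start are shown for the 3 readouts, which are known to be driven through TCF and LEF proteins, and for *Sfrp2*, the member with the largest rise. All 4 are on the plus strand and are written 5′ to 3′. Capitals mark a match to the TCF and LEF motif, searched on both strands as CTTTG followed by 2 bases that are each A or T.
*Nkd1*, chr8:88527383-88527632: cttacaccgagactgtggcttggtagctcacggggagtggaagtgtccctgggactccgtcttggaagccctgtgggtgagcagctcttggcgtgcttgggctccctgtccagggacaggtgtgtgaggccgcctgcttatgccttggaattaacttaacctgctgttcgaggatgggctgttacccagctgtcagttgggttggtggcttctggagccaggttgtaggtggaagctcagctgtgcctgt
*Axin2*, chr11:108920099-108920348: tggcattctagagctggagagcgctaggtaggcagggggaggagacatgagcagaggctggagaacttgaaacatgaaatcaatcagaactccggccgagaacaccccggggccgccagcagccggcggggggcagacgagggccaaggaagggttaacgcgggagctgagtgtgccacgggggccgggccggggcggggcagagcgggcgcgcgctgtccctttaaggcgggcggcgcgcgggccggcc
*Lef1*, chr3:131156044-131156293: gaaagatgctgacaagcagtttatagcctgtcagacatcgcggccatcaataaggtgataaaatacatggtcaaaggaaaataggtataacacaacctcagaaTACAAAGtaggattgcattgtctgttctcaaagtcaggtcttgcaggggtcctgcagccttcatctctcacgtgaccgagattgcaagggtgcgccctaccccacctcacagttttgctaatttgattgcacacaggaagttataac
*Sfrp2*, chr3:83766071-83766320: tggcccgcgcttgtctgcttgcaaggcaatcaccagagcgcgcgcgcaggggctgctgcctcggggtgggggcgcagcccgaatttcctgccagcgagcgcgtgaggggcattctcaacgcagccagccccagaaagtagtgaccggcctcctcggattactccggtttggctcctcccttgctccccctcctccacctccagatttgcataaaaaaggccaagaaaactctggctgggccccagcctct
Of the 9 windows of the 6 genes, 1 held the motif, as did 14.8% of 32851 windows of the same length over all starts in this set. The *Lef1* window shown was picked for its match, and the other 3 *Lef1* windows held none. That match, TACAAAG, begins 147 bases before the most downstream of the 4 *Lef1* starts, which lies inside the gene. The *Nkd1* start shown also lies inside its gene, downstream of the outermost annotated start. The *Axin2* window is 69.2% G and C, the *Sfrp2* window 63.6%, the *Nkd1* window 58.4% and the *Lef1* window shown 44.8%. These are letter matches in a short stretch, and they say nothing of whether a factor binds there or elsewhere at the gene.

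*Wnt10a* fell and *Sfrp2* rose in *Tgfbr2cko* pulp, and these were the 2 of 10 genes called altered (20%), where 5.77% of all genes were. One was higher and 1 lower, beside 2.12% of all genes called higher and 3.65% called lower. *Nkd1*, a feedback inhibitor, and *Dkk3*, a divergent member of the Dkk family, also had an unadjusted p under 0.05, with changes smaller than 1.5-fold. That makes 4 of 10 members (40%), 2 higher and 2 lower, against 8.38% of all genes. *Wnt6*, *Wnt5a*, *Axin2*, *Lef1*, *Sfrp1* and *Frzb* did not pass. After adjustment in limma-trend 0 members passed 0.05, where 0.947% of all genes did, and their adjusted p ran from 0.217 to 0.998. The median log2 fold change of the members was 0.12, and that of all genes -0.01. The members were chosen with earlier results of these data known, and the study had already reported *Wnt10a* as lower. The shares among the members are therefore a description only.

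**Figure D1:**
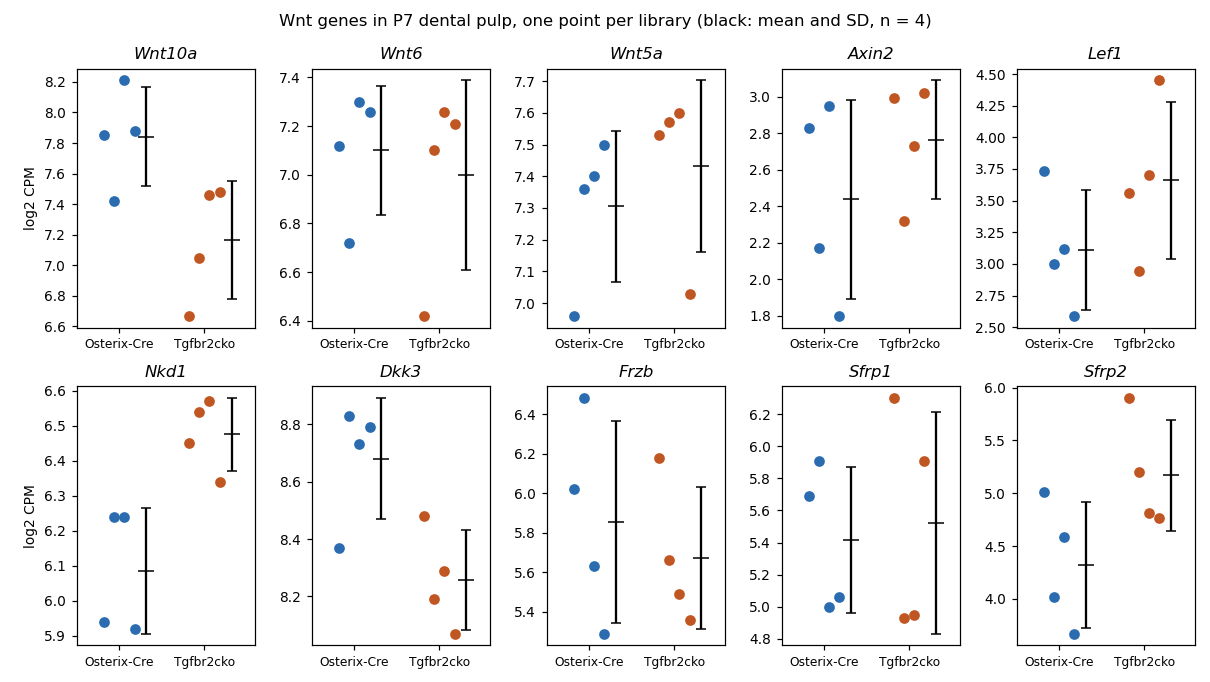
Log2 CPM of the 10 Wnt genes, 1 panel a gene, with the 4 Osterix-Cre libraries in blue, the 4 *Tgfbr2cko* libraries in orange, and the mean and SD in black. All mutant points lie above all control points for *Nkd1* alone, and the groups overlap in the other 9 panels.

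Levels were set on a common scale per length of exon, as CPM divided by the exon length in kb (RPKM). The Dkk family member *Dkk3* was the most abundant member in the controls, at 123 ± 16.9 (SD, n = 4). *Wnt10a* followed at 94.6 ± 20.7 and *Wnt6* at 63.4 ± 10.9. A step down led to *Wnt5a* at 20.4 ± 3.14, *Frzb* at 18.7 ± 6.7, *Nkd1* at 15.0 ± 1.87, *Sfrp1* at 10.1 ± 3.15 and *Sfrp2* at 9.87 ± 4.02. The canonical readouts *Axin2* and *Lef1* were lowest, at 1.03 ± 0.37 and 1.02 ± 0.351, so the scale spans 121-fold. The length is the union of all annotated exons, from 2153 bases for *Sfrp2* to 8788 for *Lef1*. It can exceed that of the main transcript, so the order and the span depend on it. The control ranges of neighbours in this order did not overlap between *Wnt6* and *Wnt5a* or between *Sfrp2* and *Axin2*, and overlapped at every other step. In the mutants *Wnt10a* and *Wnt6* stood level, at 59.7 ± 15.0 and 59.8 ± 14.1 RPKM (SD, n = 4), and *Sfrp2* had moved from rank 8 to rank 6 at 17.6 ± 7.01.

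*Wnt10a* (ENSMUSG00000026167.14, chromosome 1, 74791516 to 74804179) encodes a canonical ligand of odontoblasts. Its log2 values were 7.85, 7.42, 8.21 and 7.88 in the controls, against 6.67, 7.05, 7.46 and 7.48 in the mutants. Only the lowest control, the library labelled 50, reached into the mutant range. The mean fell from 7.84 ± 0.32 to 7.17 ± 0.38 (SD, n = 4 per genotype), a log2 fold change of -0.68 (95% interval -1.13 to -0.22), or 0.626 of the control level. Its unadjusted p was 0.00653 and its adjusted p 0.217 (limma-trend), and 70 arrangements of the 8 libraries gave a two-sided exact permutation p of 0.0857. The unadjusted p stayed under 0.05 in all 8 fits that each left out 1 library, with changes from -0.82 to -0.51. The 1.5-fold limit was missed without the library labelled 51, at -0.55, and without that labelled 53, at -0.51, so the call was lost in both fits. In bulk tissue, fewer cells of a type and less RNA per cell cannot be told apart. The summed level of the 7 odontoblast markers ran from 47849 to 101962 CPM in the controls and from 29290 to 63052 CPM in the mutants. Of the 7, 0 were called higher and 2 lower, beside 2.12% and 3.65% of all genes. The part of this level in the fall of *Wnt10a* was not tested.

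*Wnt6* (ENSMUSG00000033227.7, chromosome 1, 74771892 to 74785322) is the nearest neighbour of *Wnt10a*. It lies on the same strand with 6193 bases and no annotated gene between them. Its log2 values were 7.12, 6.72, 7.30 and 7.26 in the controls, against 6.42, 7.10, 7.26 and 7.21 in the mutants. The groups overlapped almost entirely, and the library labelled 53 was lowest for both genes. The change of *Wnt6* was -0.10 (95% interval -0.53 to 0.33, exact permutation p = 0.6), and it turned to 0.09 when the library labelled 53 was left out.

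The ratio of the neighbours within each library separated the genotypes. *Wnt10a* exceeded *Wnt6* by 0.72, 0.70, 0.91 and 0.63 on the log2 scale in the controls. In the mutants the same difference was 0.25, -0.05, 0.20 and 0.27. Each mutant was below the lowest control, and *Wnt10a* stood 1.67-fold above *Wnt6* in reads in the controls and 1.12-fold above it in the mutants. The difference between the genotypes was -0.57 (exact permutation test, p = 0.0286, the smallest that 70 arrangements allow, and 0.0857 after adjustment over the 3 gene pairs compared). Leaving out single libraries kept it within -0.61 to -0.50. A ratio within a library does not depend on how libraries are scaled. The difference did not pass after adjustment over the pairs.

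**Figure D2:**
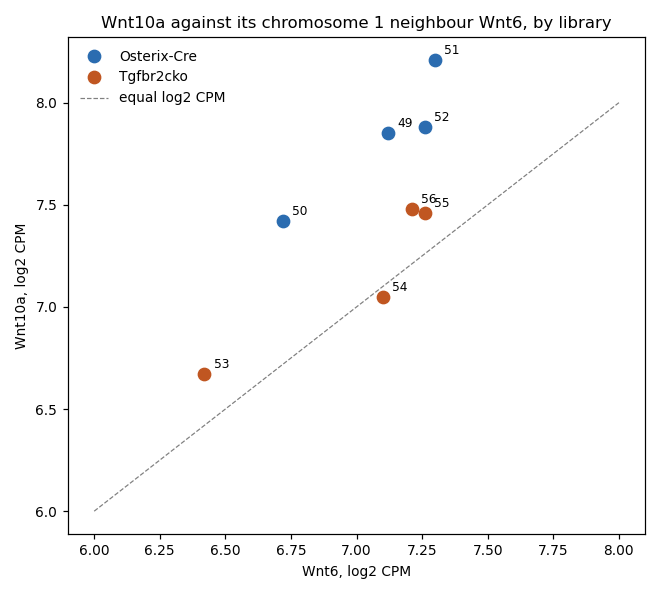
Log2 CPM of *Wnt10a* against *Wnt6* in each library, labelled by number, with Osterix-Cre in blue, *Tgfbr2cko* in orange and a dashed line of equal values. The 4 controls lie 0.63 to 0.91 above the line, and the 4 mutants between -0.05 and 0.27 from it.

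*Wnt5a* (ENSMUSG00000021994.14, chromosome 14, 28504750 to 28527448), a ligand best known for signalling without β-catenin, had log2 values of 6.96, 7.36, 7.40 and 7.50 in the controls, against 7.53, 7.57, 7.60 and 7.03 in the mutants. The mutants labelled 53 to 55 sat just above the controls and the library labelled 56 sat among them. The change was 0.13 (95% interval -0.24 to 0.50, exact permutation p = 0.457), and 0.27 without that library, where the unadjusted p did not pass either. Without the library labelled 49 the *Wnt5a* change was 0.02. An antisense gene shares 4.58% of its exon length, and the counting is not stated to use strand.

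The readouts of canonical signalling had higher means in the mutants, but only *Nkd1* passed the test. *Nkd1* (ENSMUSG00000031661.12, chromosome 8, 88521354 to 88594884), which binds Dishevelled and restrains the pathway that induces it, had log2 values of 5.94, 6.24, 6.24 and 5.92 in the controls. In the mutants the values were 6.45, 6.54, 6.57 and 6.34, so the groups did not overlap, as in 5.27% of all genes. The rise from 6.08 ± 0.18 to 6.48 ± 0.10 (SD, n = 4 per genotype) was 0.39 on the log2 scale (95% interval 0.09 to 0.70), or 1.31-fold. Its limma-trend p was 0.0159, its adjusted p 0.338 and its exact permutation p 0.0286. Without the library labelled 56 the rise was 0.44, and the unadjusted p stayed under 0.05 in all 8 fits that each left out 1 library.

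*Axin2* (ENSMUSG00000000142.15, chromosome 11, 108920349 to 108950783), a scaffold of the β-catenin destruction complex, was counted with 35 to 109 reads per library. Its log2 values were 2.83, 2.17, 2.95 and 1.80 in the controls, against 2.99, 2.32, 2.73 and 3.02 in the mutants. The groups overlapped, and the controls spread over more than the difference of their means. The change of 0.33 had a 95% interval of -0.32 to 0.98 (exact permutation p = 0.314), which holds both a small fall and a near doubling. A shift of the size seen for *Nkd1* was therefore not detectable here. With single libraries left out the *Axin2* change ran from 0.12 to 0.50. An antisense gene shares 3.80% of its exon length.

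*Lef1* (ENSMUSG00000027985.14, chromosome 3, 131110471 to 131224356) encodes a DNA-binding partner of β-catenin and was counted with 61 to 295 reads. Its log2 values were 3.73, 3.0, 3.12 and 2.59 in the controls, against 3.56, 2.94, 3.70 and 4.45 in the mutants. The highest value was that of the library labelled 56, and the next were those labelled 49 and 55, which are also the 3 libraries with the most enamel matrix transcripts. The change was 0.55 (95% interval -0.14 to 1.24, exact permutation p = 0.286). It was 0.29 without the library labelled 56, and 0.22 with the mean log2 value of *Amelx*, *Ambn* and *Enam* in the model. Without the library labelled 49 it was 0.76 and without that labelled 54 it was 0.79, and only in these fits did the unadjusted p pass 0.05. The share of *Lef1* reads that an antisense gene over 13.7% of its exon length could hold is not known. Between *Axin2* and *Lef1*, the within-library log2 ratio was -0.68 ± 0.34 in the controls, against -0.90 ± 0.40 in the mutants (SD, n = 4 per genotype; exact permutation test, p = 0.486).

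**Figure D3:**
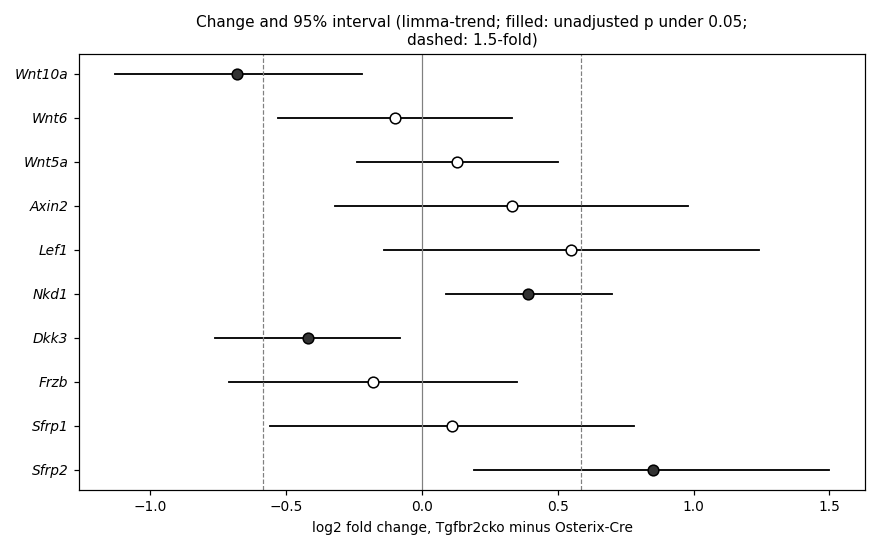
Log2 fold change of each member, *Tgfbr2cko* minus Osterix-Cre, with its 95% interval from limma-trend. Filled points have an unadjusted p under 0.05 (*Wnt10a*, *Nkd1*, *Dkk3* and *Sfrp2*), and the dashed lines mark 1.5-fold, which *Wnt10a* at -0.68 and *Sfrp2* at 0.85 exceed.

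The secreted antagonists and *Dkk3* did not move together. *Sfrp2* (ENSMUSG00000027996.13, chromosome 3, 83766321 to 83774316), a soluble protein with a Frizzled-like ligand-binding domain, had the largest change of the 10 genes. In log2 CPM it had 5.01, 4.02, 4.59 and 3.67 in the controls, against 5.90, 5.20, 4.81 and 4.77 in the mutants. One control, the library labelled 49, lay above the lower pair of mutants, those labelled 55 and 56. The mean rose from 4.32 ± 0.59 to 5.17 ± 0.52 (SD, n = 4 per genotype), by 0.85 on the log2 scale (95% interval 0.19 to 1.5) or 1.80-fold. Limma-trend gave p = 0.0155 and an adjusted p of 0.334, and the exact permutation p was 0.114. The unadjusted p missed 0.05 without the library labelled 52, at 0.0565, and without that labelled 53, at 0.0504. An antisense gene overlaps 16.1% of the exon length of *Sfrp2*, the most of any member, and without strand its reads cannot be told apart from those of *Sfrp2*.

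*Dkk3* (ENSMUSG00000030772.6, chromosome 7, 112116017 to 112159057) belongs to the Dkk family by sequence but does not bind Lrp5 and Lrp6 as Dkk1 does. The libraries had log2 values of 8.37, 8.83, 8.73 and 8.79 in the controls, against 8.48, 8.19, 8.29 and 8.07 in the mutants. All but the library labelled 49 among the controls lay above every mutant. The fall from 8.68 ± 0.21 to 8.26 ± 0.17 (SD, n = 4 per genotype) was -0.42 on the log2 scale (95% interval -0.76 to -0.08), or 0.747 of the control level. Its limma-trend p was 0.0196, its adjusted p 0.381 and its exact permutation p 0.0571. Without the library labelled 50 the p was 0.058 and without that labelled 52 it was 0.0503.

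*Sfrp1* (ENSMUSG00000031548.7, chromosome 8, 23411502 to 23449632), a close relative of *Sfrp2*, had log2 values of 5.69, 5.91, 5.0 and 5.06 in the controls, against 6.30, 4.93, 4.95 and 5.91 in the mutants. High and low libraries occurred in both genotypes, with none between 5.06 and 5.69. The change of 0.11 (95% interval -0.56 to 0.78, exact permutation p = 0.8) had no fixed sign, running from -0.15 to 0.31 when single libraries were left out. *Frzb* (ENSMUSG00000027004.3, chromosome 2, 80411970 to 80447625), also named Sfrp3, had values of 6.02, 6.48, 5.63 and 5.29 in the controls, against 6.18, 5.66, 5.49 and 5.36 in the mutants. Its groups overlapped as well, and its change was -0.18 (95% interval -0.71 to 0.35, exact permutation p = 0.629), or 0.03 without the library labelled 50. The within-library log2 ratio of *Sfrp1* to *Sfrp2* was 1.09 ± 0.67 in the controls, against 0.35 ± 0.59 in the mutants (SD, n = 4 per genotype). That difference of -0.74 did not pass the exact permutation test (p = 0.143).

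Beyond the members, 56 of 80 listed genes of the pathway were in the table. The largest changes among them were a fall of *Wnt5b* and a rise of *Cthrc1*. By the same rule 7 were called higher and 1 lower, together 14.3% beside the 5.77% of all genes, and the median log2 fold change was 0.21 against -0.01 for all genes. With the unadjusted p alone 11 were higher and 1 was lower, beside 8.38% of all genes, and 2 passed after adjustment, beside 0.947%. The list was chosen with earlier results of these data known.

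Among the ligands 4 of 16 were in the table. *Wnt5b*, like *Wnt5a* a ligand known mostly for signalling without β-catenin, had log2 values of 5.77, 5.65, 4.93 and 5.61 in the controls, against 4.51, 3.68, 3.85 and 3.68 in the mutants. Every mutant lay below every control. The log2 fold change of -1.56 (95% interval -2.06 to -1.05), or 0.34 of the control level, had an adjusted p of 0.00638 in limma-trend, and leaving out single libraries kept it within -1.75 to -1.46. *Wnt4* had values of 4.24, 4.39, 4.29 and 4.18 in the controls, against 4.06, 4.65, 5.21 and 6.14 in the mutants. Its change of 0.74 (adjusted p = 0.574 in limma-trend) was 0.37 without the library labelled 56, and the call was lost then and without any 1 of those labelled 49 to 52 or 55. *Wnt11*, the remaining ligand with the highest mean, differed by -0.21 (adjusted p = 0.93 in limma-trend).

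Of 12 receptors and co-receptors, 2 ligand-processing genes, 5 genes of the R-spondin arm and 19 transducers in the table, 0 were called altered, beside 5.77% of all genes. An unadjusted limma-trend p under 0.05 was found for 3 of them, beside 8.38% of all genes. *Ctnnb1*, which encodes β-catenin, had 9.34 ± 0.18 in the controls, against 9.59 ± 0.16 in the mutants (SD, n = 4 per genotype) and was not called. *Wls*, needed to export Wnt proteins, had 8.92 ± 0.12 and 9.16 ± 0.25 and was not called. The pseudokinase receptor *Ptk7* differed by -0.02 and the R-spondin *Rspo4* by -0.27, and neither was called. The *Rspo4* difference ran from -0.61 to 0.13 with single libraries left out, and it was 0.13 without the library labelled 56.

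In the feedback group 2 of 5 further genes were called higher and 0 lower, where 2.12% of all genes were called higher and 3.65% lower. *Bambi*, a decoy receptor of the TGFβ family that is also known to respond to β-catenin, had 9.30, 9.25, 9.66 and 9.39 in the controls, against 9.80, 10.34, 9.95 and 10.05 in the mutants, without overlap. It rose by 0.64 on the log2 scale (95% interval 0.25 to 1.03), or 1.56-fold, with an adjusted p of 0.145 in limma-trend and an exact permutation p of 0.0286. Without the library labelled 54 the change was 0.54, under 1.5-fold, and the call was lost. *Notum*, an enzyme that strips the lipid from Wnt proteins, rose by 0.77 (adjusted p = 0.388 in limma-trend), and the call was lost without the library labelled 56, at 0.45, and without that labelled 52, at 0.67.

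In the group of secreted antagonists and modulators 4 of 9 further genes were called higher and 0 lower, against the same 2.12% and 3.65% of all genes. *Dkk1*, which blocks the Lrp5 and Lrp6 co-receptors, had log2 values of 4.29, 3.93, 5.09 and 5.30 in the controls, against 5.35, 6.70, 5.81 and 5.66 in the mutants. The groups met without overlapping, and the rise of 1.23 (95% interval 0.53 to 1.93), or 2.34-fold, had an adjusted p of 0.118 in limma-trend and an exact permutation p of 0.0286. *Cthrc1*, a secreted protein known to favour the branch without β-catenin, had 4.46, 3.50, 2.35 and 2.66 in the controls, against 5.29, 5.55, 4.70 and 4.68 in the mutants. It rose by 1.81 (95% interval 0.97 to 2.65), or 3.51-fold, with an adjusted p of 0.047 in limma-trend. *Sostdc1*, an inhibitor of both Wnt and BMP signals, changed by 1.21 (adjusted p = 0.255 in limma-trend) and *Sfrp5* by 1.0 (adjusted p = 0.498), and the library labelled 56 was highest for both. Without it the changes were 0.76, still called, and 0.70, no longer called. The call of *Sfrp5* was also lost without any 1 of the libraries labelled 49, 50, 52, 54 or 55. *Serpinf1*, the most abundant of the group, had 11.77 ± 0.26 in the controls, against 12.10 ± 0.45 in the mutants (SD, n = 4 per genotype) and was not called.

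**Figure D4:**
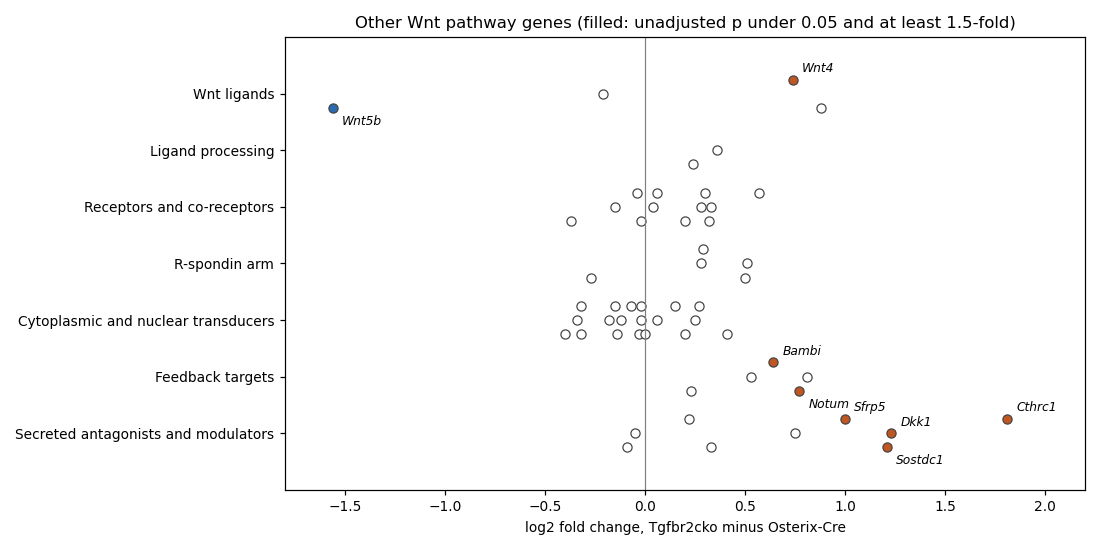
Log2 fold change, *Tgfbr2cko* minus Osterix-Cre, of the 56 other Wnt pathway genes, 1 row a role. The 8 filled and named genes were called altered, with *Wnt5b* at -1.56 the one to the left of zero and *Cthrc1* at 1.81 farthest to the right.

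Enamel organ transcripts differed between libraries of the same genotype, and some Wnt genes moved with them. The mean log2 value of *Amelx*, *Ambn* and *Enam* was 12.08, 9.23, 9.65 and 10.21 in the controls, against 9.99, 9.27, 12.58 and 15.28 in the mutants. With this mean in the model *Wnt10a* (-0.83), *Nkd1* (0.45), *Sfrp2* (0.94) and *Dkk3* (-0.33) kept their direction and an unadjusted limma-trend p under 0.05. So did *Wnt5b* (-1.52), *Cthrc1* (1.85), *Dkk1* (1.35), *Bambi* (0.67) and *Sostdc1* (0.75). *Wnt4* (0.38), *Notum* (0.51) and *Sfrp5* (0.69) no longer passed. Leaving out the library labelled 56 instead gave 0.37, 0.45 and 0.70 for these genes, and a link to enamel transcripts apart from that library was not tested. One further listed gene was called in the model with the enamel mean, the R-spondin *Rspo2* at 0.64, which is named after its values were seen.

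**Figure D5:**
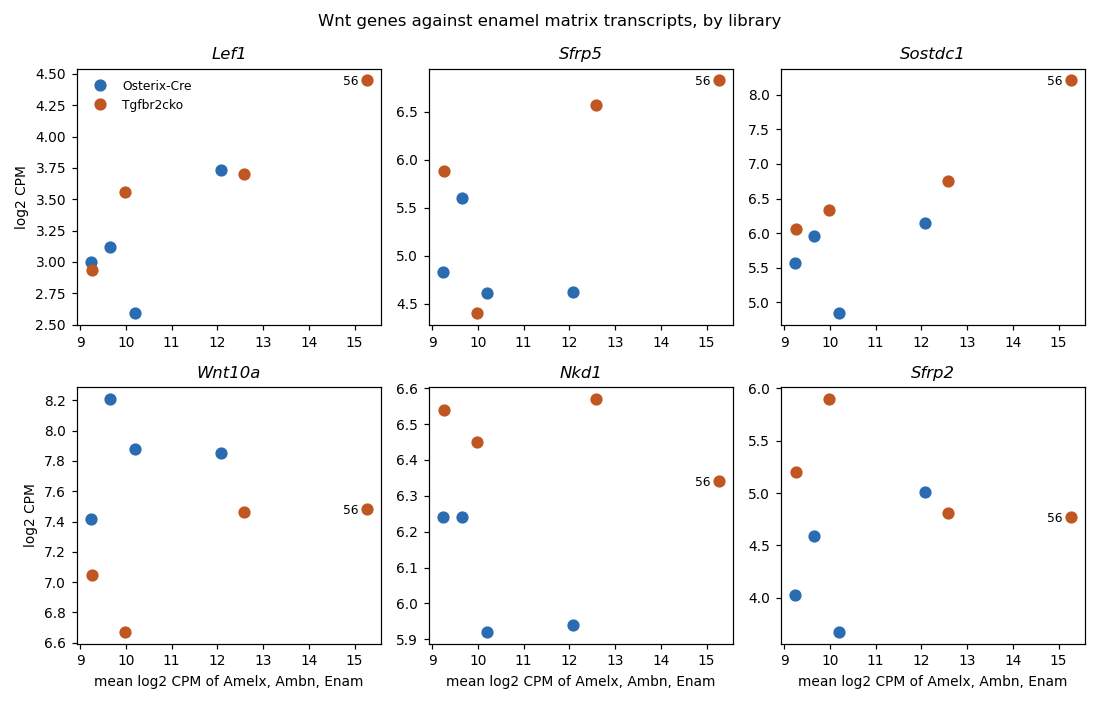
Log2 CPM of 6 Wnt genes against the mean log2 CPM of *Amelx*, *Ambn* and *Enam*, 1 point a library, Osterix-Cre in blue and *Tgfbr2cko* in orange. The library labelled 56, at 15.28 on the horizontal axis, is the highest of all for *Lef1*, *Sfrp5* and *Sostdc1*. For *Wnt10a* it is the highest mutant, and for *Nkd1* and *Sfrp2* the lowest.

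The genes whose pattern over the 8 libraries was closest to each altered member were found among 10312 genes, by the root mean square difference after centring each gene and dividing by its SD. For *Wnt10a* they were *Stac3* (0.311 SD), *Gtf2ird1* (0.33 SD) and *Tspan13* (0.359 SD), which changed by -1.67, -0.33 and -1.08 on the log2 scale. For *Sfrp2* they were *Dtymk* (0.176 SD), *BC003965* (0.184 SD) and *Med11* (0.266 SD), which changed by 0.19, 0.22 and 0.30. Over 8 libraries such closeness is a description only.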

How the data were processed

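The labels and the methods of the study state that the authors amplified RNA from a low input, trimmed the reads (fastp 0.21.0), aligned them (HISAT2 2.1.0, GRCm38.p5) and counted them per gene (featureCounts, Subread 2.0.1, GENCODE M14). They kept the genes listed by the CLEAR workflow and applied voom, so the deposited values are log2 CPM with 0.5 added to each count. Strandedness is not given in the sources used here. All 97184 values turned back into whole reads (largest distance 3.33e-08). Identifiers were matched without version to GENCODE M21 (GRCm38) for 12144 of 12148 genes, with exon lengths from the union of exons. Genotypes were compared on the log2 values of all 8 libraries in one two-sided limma-trend model (limma 3.58.1, R 4.3.3), adjusted over all genes by Benjamini-Hochberg, and single values by two-sided exact permutation tests. The script was tested on simulated data. Members, lists and alternatives were chosen with earlier results of these data known. Named genes are the members, listed pathway genes called altered, the listed gene with the highest mean in each role, *Tgfbr2*, the enamel genes, and the 3 genes of closest pattern (mean log2 value of at least 3) for each altered member. *Klk4* and *Rspo2* were named outside this rule, after their values were seen. Figures used Python 3.11.15 and matplotlib 3.10.9.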

Additional observations from a re-analysis of the deposited data

Results flagged for a closer look

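A single library stood far from the other 3 of its genotype in 2 of 44 groups of 4 examined, by the gap to its nearest neighbour over the range of the group, where chance flags about 1 in 20 groups. *Wnt5a* had a log2 value of 7.03 in the library labelled Tgfbr2cko 56, against 7.53, 7.57 and 7.60 in the other mutants. Values are scaled to total reads, of which *Amelx* and *Ambn* took 18.5% in that library. Its median log2 value over all genes was 4.809, against 5.081, 5.07 and 5.003 in the other mutants. The part of this scaling in the flag was not tested. The log2 ratio of *Axin2* to *Lef1* was -0.17 in the library labelled Osterix-Cre 51, against -0.91, -0.83 and -0.79 in the other controls.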

How the results depend on the processing

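Over 18 named genes and their alternative fits, 258 of 305 values kept their direction and their side of an unadjusted p of 0.05, 36 no longer passed (among them 12 of *Wnt4* and 11 of *Sfrp5*), 2 newly passed and 9 changed sign. *Wnt10a*, *Wnt5b*, *Dkk1* and *Cthrc1* kept an unadjusted p under 0.05 in every alternative run, and *Nkd1*, *Bambi* and *Sostdc1* in all but the block on title number. Outside that block the sign changes were those of *Sfrp1*, at -0.08 with library weights and from -0.15 to 0.31 with single libraries left out, of *Frzb* (-0.37 to 0.03) and of *Wnt6* (-0.23 to 0.09). The number of members called altered was 2 in the other unblocked fits to all libraries, 0 at 2-fold and 0 after adjustment in limma-trend, with 4 at an unadjusted p under 0.05. It ran from 0 to 3 with single libraries left out: 0 without 53, 1 without 51 or 52, and 3, with *Lef1*, without 49 or 54. Of the other pathway genes 8 were called, 6 to 11 in the other unblocked fits to all libraries, 5 at 2-fold and 2 after adjustment. With single libraries left out 5 (without 52) to 13 (without 53) were called. Over all genes 701 were called, and 510 (in the fit limited to higher genes) to 779 in the other unblocked fits to all libraries. With single libraries left out the calls over all genes ran from 625 (without 50) to 947 (without 53), and numbered 656 without 52. Among all genes the calls after adjustment numbered 115, 258 with library weights, and 65 (without 51), 70 (without 52), 72 (without 55) to 165 (without 53) with single libraries left out. The *Tgfbr2* change was -0.42 with library weights, where the unadjusted p passed 0.05, and -0.42 to -0.22 with single libraries left out. After averaging libraries that share genotype and title number, the ratio of *Wnt10a* to *Wnt6* differed by -0.58, with an exact permutation p of 0.1, the smallest that 3 against 2 allows. The causes were not tested. The planned count models were not run, although whole reads could be recovered, and the fit with voom weights used those reads. *Axin2*, with a mean log2 value under 3, was absent from the fit limited to higher genes. A replicate block on title number was added after seeing the data. The labels do not say that the number pairs libraries, and the genotypes share only number 2, so the block compares the library labelled 51 with those labelled 54 and 55, with 3 residual degrees of freedom. With it, 313 genes were called altered (701 without), 0 passed after adjustment in limma-trend (315 at an unadjusted p under 0.05), and 1 member, *Wnt10a* at -0.95, and 4 other pathway genes were called. *Tgfbr2* was at -0.56, *Axin2* turned to -0.42 and *Sfrp1* to -0.06, and *Nkd1* (0.31), *Dkk3* (-0.49), *Sfrp2* (0.42), *Bambi* (0.49), *Sostdc1* (0.45), *Notum* (0.07), *Wnt4* (0.64) and *Sfrp5* (0.62) did not pass. Among the members depth limits *Axin2* and *Lef1* most, at 35 to 109 and 61 to 295 reads.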

Other observations

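The titles carry a further number that the sources used here do not explain, and *Sfrp1* followed it in both genotypes. Its log2 values were 5.69 and 5.91 in the controls numbered 4, 5.0 in that numbered 2 and 5.06 in that numbered 5, and 6.30 and 5.91 in the mutants numbered 3 and 4.93 and 4.95 in those numbered 2. This was seen after the values were known and was not tested. Within the number 2, which 1 control and 2 mutants share, the differences between genotypes were -0.95 for *Wnt10a*, 0.31 for *Nkd1* and -0.49 for *Dkk3*. They were 0.42 for *Sfrp2*, -0.42 for *Axin2* and -0.06 for *Sfrp1*. These are the estimates of the block on title number given above, resting on 1 control, and not a second comparison.

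Of the 13 markers listed for dental epithelium and enamel organ, *Klk4*, named here after its values were seen, was the 1 called lower. It fell by 2.71 on the log2 scale (adjusted p of 0.000136 from limma-trend). Its log2 values were 7.78, 7.26, 7.43 and 7.71 in the controls, against 4.20, 4.53, 5.22 and 5.39 in the mutants. The library labelled 56, with the most *Amelx* and *Ambn* reads, thus lay below every control, so *Klk4* did not track these genes across genotypes. Of the 13 markers 3 were called higher and the other 9 were not called, beside 2.12% of all genes called higher and 3.65% lower.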
